A study of Mus musculus with 23 samples.

Results

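RNA from male germ cells of mice without Spo11 was compared with RNA from the same cell fractions of wild-type mice. The comparison used 13 of the 23 arrays of the series: all 3 Spo11-/- arrays, holding 1 array each of spermatogonia, pre-leptotene and leptotene/zygotene spermatocytes, and the 10 wild-type arrays that carry the same fraction labels (4, 3 and 3 arrays). Cells were sorted from testis after Hoechst staining, a DNA dye that separates germ cell stages by DNA content and chromatin state. The other 10 wild-type arrays hold later cells, namely pachytene spermatocytes (1 early, 2 mid and 1 late array), diplotene spermatocytes (2 arrays) and round spermatids (4 arrays), and served here to sort genes by their later course. Wild-type mice were C57BL6xDBA2J F1 males aged 10 to 16 weeks. Spo11-/- males had the same age range, and their strain was not given in the sources used here, so genotype and strain cannot be told apart. Each Spo11-/- array holds cells pooled from 2 collections, of 4 and 3 mice; the 3 fractions probably come from the same collections, which the fit treats as independent samples. Wild-type arrays are labelled as biological replicates, so p-values measure the spread between arrays.

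Spo11 is the topoisomerase-like enzyme that cuts DNA at the start of meiotic recombination. In leptotene and zygotene the breaks are resected, bound by the meiotic recombinase Dmc1 and used to pair homologous chromosomes along the synaptonemal complex. The histone methyltransferase Prdm9 places the breaks. Without breaks, homologs do not synapse properly, spermatocytes are lost before the middle of pachytene and adult testes lack spermatids. In normal pachytene a new set of genes is switched on by factors such as Mybl1, among them genes whose RNA is stored for sperm, and the X and Y chromosomes are silenced.

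Of 18193 genes on the array, 12015 passed a filter on low values and were tested. Levels are log2(intensity + 1), and a change is the fitted Spo11-/- minus wild-type difference over the 3 fractions on that log2 scale, with its standard error (SE). A gene rose or fell where limma's Benjamini-Hochberg adjusted p was below 0.05 and the change at least 1. By this rule 1386 genes changed, 11.5% of those tested: 203 rose (1.69%) and 1183 fell (9.85%). A total of 3712 genes had an unadjusted p below 0.05. In all 3 fractions the Spo11-/- array lay above every wild-type array for 794 genes (6.61%) and below every one for 1834 (15.3%). The median change of all genes was -0.04. The median intensity of all probe sets, on the linear scale before the log2 step, ran from 10.63 to 12.17 over the 13 arrays. Scaling bore on the split. Quantile normalization put the median of all genes at 0.13 and gave 574 rises and 866 falls. Median centring put it at 0.17, with 468 rises and 982 falls. Rises were 14.6% of the changes as deposited, 39.9% after quantile normalization and 32.3% after centring. With a random block that held the 3 Spo11-/- arrays as 1 unit and wild-type arrays of the same number as others, 80 rose and 682 fell; this fit is called the block from here on.

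Several arrays stood apart. The Spo11-/- pre-leptotene array carried T cell RNA, described further on, and the comparison without that array gave 158 rises and 1053 falls. Without the Spo11-/- spermatogonia array there were 201 and 784, and without the Spo11-/- leptotene/zygotene array 115 and 721. Wild-type spermatogonia arrays 1 and 2 held the most spermatid RNA. The comparison without both gave 152 rises and 1160 falls. Wild-type spermatogonia array 4 lay at least log2 1 above the other 3 in 799 genes, and without it 207 genes rose and 1208 fell. The fraction labels separated early germ cells weakly. Medians of 16 spermatogonial stem and progenitor genes ran from 6.61 to 8.76 in wild-type spermatogonia and from 8.14 to 8.36 in leptotene/zygotene. The axis protein gene Sycp3, a meiotic marker, had a mean of 12.52 in wild-type spermatogonia against 13.34 in leptotene/zygotene.

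The targeted gene was examined first. Spo11 (chromosome 2) was at 4.30, 4.80 and 5.21 in Spo11-/- spermatogonia, pre-leptotene and leptotene/zygotene arrays. Wild-type arrays ran from 4.60 through a median of 6.69 to 8.95. The Spo11-/- array lay below every wild-type array in spermatogonia and in leptotene/zygotene, where the wild-type mean was 8.37, and within the wild-type range in pre-leptotene. The fitted change was -1.97 ± 0.59 (adjusted p = 0.0408). The call ended under several alternatives, among them without the Spo11-/- leptotene/zygotene array (-1.40, adjusted p = 0.241) and with the block (-2.01, adjusted p = 0.0943). Whether its probe set lies in the deleted stretch was not given in the sources used here. Wild-type Spo11 RNA was highest in a later fraction, with a mean of 12.11.

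Genes of later spermatogenesis made up most of the loss. Of 29 spermatid genes 28 fell and none rose, with a median change of -5.08 against -0.04 over all genes. The exception, the sperm calcium channel gene Catsper1, was at -1.42 (adjusted p = 0.0668). With genes below background at their bounds the median was -4.18. Prm1, which encodes a protamine that packs sperm DNA, was at 3.35, 3.17 and 3.29 in the 3 Spo11-/- arrays. Wild-type arrays ran from 13.45 through 14.01 to 15.45, and no array of one genotype came near those of the other. A log2 of 4 was taken as background, and where every array of a group lay below it the fold is a lower bound against that level. Prm1 was at least 1126-fold lower (adjusted p = 4.89e-09).

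The other packaging genes behaved alike. Prm2 was at 3.32, 2.95 and 3.03 against 12.39, 13.29 and 15.24 for the lowest, median and highest wild-type array, and was at least 648-fold lower. The transition protein gene Tnp1 was at 2.71, 2.26 and 3.67 against 11.46, 12.71 and 15.23 (at least 457-fold lower), and Tnp2 at 2.65, 2.54 and 2.62 against 10.87, 12.22 and 14.88 (at least 324-fold lower). Transition proteins replace histones before the protamines do. Genes of the sperm tail and its energy supply were below background as well: Smcp of the mitochondrial capsule (at least 278-fold lower), Odf1 of the outer dense fibres (at least 182-fold), the sperm glycolysis gene Gapdhs (at least 125-fold) and Akap4 of the fibrous sheath (at least 124-fold). The levels of Prm1 and Tnp1 in every array are shown with those of 10 other genes.

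**Figure D1:**
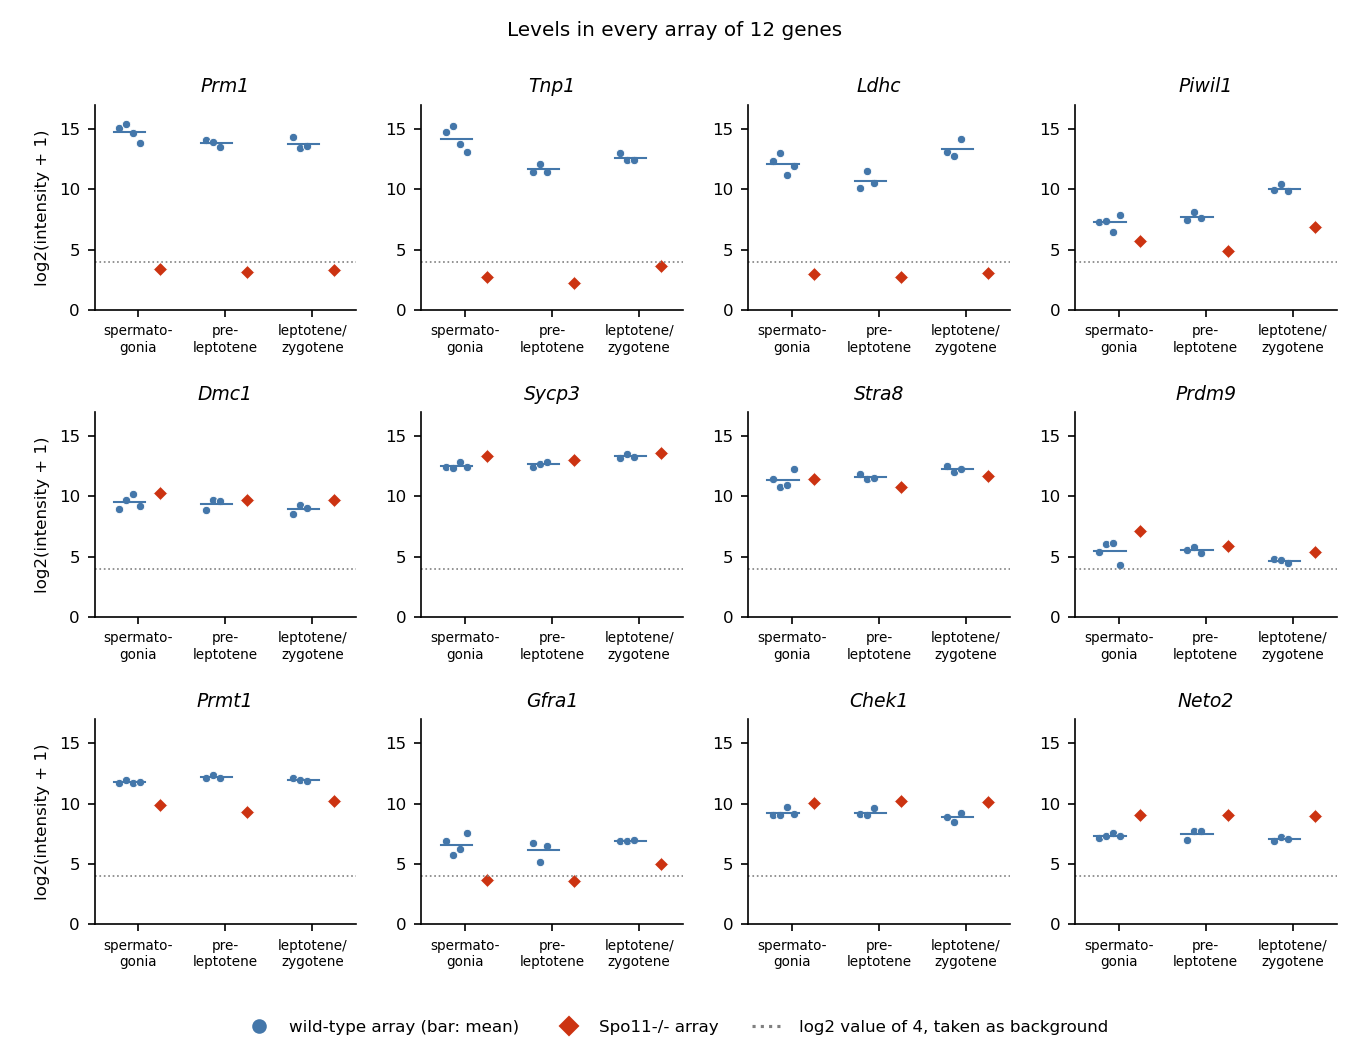
Levels of 12 genes as log2(intensity + 1) in each of the 13 arrays, by fraction; blue circles are wild-type arrays with their mean as a bar, red diamonds are the single Spo11-/- array of the fraction, and the dotted line is the log2 value of 4 taken as background. Prm1, Tnp1 and Ldhc lie below that line in all 3 Spo11-/- arrays and above 10 in every wild-type array, while the fitted changes of Dmc1, Sycp3 and Stra8 are below 1 in size.

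The list of late prophase genes split. In the Spo11-/- arrays 9 members were below background throughout, while others, such as Tcfl5 (12.24, 12.41 and 12.61), were high in these early fractions. Of 25 tested 16 fell and 0 rose, with a median change of -2.84, where 9.85% of all genes tested fell. Ldhc, the testis lactate dehydrogenase, was at 2.95, 2.70 and 3.03 in the Spo11-/- arrays. The wild type ran from 10.08 through 12.14 to 14.19, which made Ldhc at least 268-fold lower (adjusted p = 9.98e-07). The sperm protein gene Crisp2 was at 3.89, 3.69 and 5.05 against 9.72, 12.33 and 14.35 (-8.00 ± 0.57, adjusted p = 9.83e-06). Pgk2, which stands in for the silenced X-linked phosphoglycerate kinase, was at least 93.8-fold lower. Among genes of the pachytene programme itself, the cyclin gene Ccna1 fell by 3.07 (SE 0.60, adjusted p = 0.00552), from a wild-type range of 5.76 to 10.35 to 3.73, 3.71 and 4.85. The regulator Rfx2 of cilium and sperm genes fell by 3.27 (adjusted p = 0.00169).

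Other members were not called. Mybl1, the transcription factor of the pachytene programme, was at 6.23, 5.40 and 6.27 against 4.97, 5.66 and 7.43 (0.05 ± 0.30, adjusted p = 0.933). Its wild-type level was higher later, up to a mean of 10.31. Hspa2, a chaperone of the synaptonemal complex, was at 9.83, 9.11 and 9.85 against 9.31, 10.45 and 12.50 (-1.003 ± 0.40, adjusted p = 0.117). The transcription factor gene Tcfl5 was at -0.53 (adjusted p = 0.0726) and the centrosomal kinase gene Nek2 at 0.21 (adjusted p = 0.756). The calreticulin family gene Calr3 was at 0.73 (adjusted p = 0.0307), short of the fold minimum.

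The piRNA pathway silences transposons and in pachytene makes a large class of small RNAs. Of 18 of its genes 3 fell and 0 rose (median change 0.00), where 9.85% of all genes tested fell. Piwil1, the Argonaute protein of pachytene piRNAs, was at 5.70, 4.84 and 6.86 against a wild-type range of 6.43, 7.75 and 10.41. In each fraction the Spo11-/- array lay below every wild-type array, and the fall was 2.53 (SE 0.34, adjusted p = 0.000573). Gtsf1, a Piwi partner, was at 9.95, 9.40 and 10.81 against 10.35, 11.55 and 12.70 (-1.54 ± 0.34, adjusted p = 0.0102). Pld6, a nuclease of the mitochondrial surface, was at 8.44, 7.49 and 8.70 against 8.70, 9.21 and 9.72 (-1.05 ± 0.20, adjusted p = 0.00507). The calls of Gtsf1 and Pld6 ended without the Spo11-/- pre-leptotene array, which left 1 fall in the list, and that of Pld6 also after quantile normalization and median centring. All 3 genes are higher in later wild-type fractions, with highest means of 14.08, 13.90 and 12.06.

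The tie to later stages held over all genes. Of the 1183 genes that fell, 931 (78.7%) had a later wild-type fraction mean above all 3 early ones. For the 203 that rose the number was 54 (26.6%) and for the 10629 others 4952 (46.6%). The median difference between the highest later and highest early mean was 2.59 for genes that fell and -0.66 for those that rose. The plot of change against later course shows both groups.

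**Figure D2:**
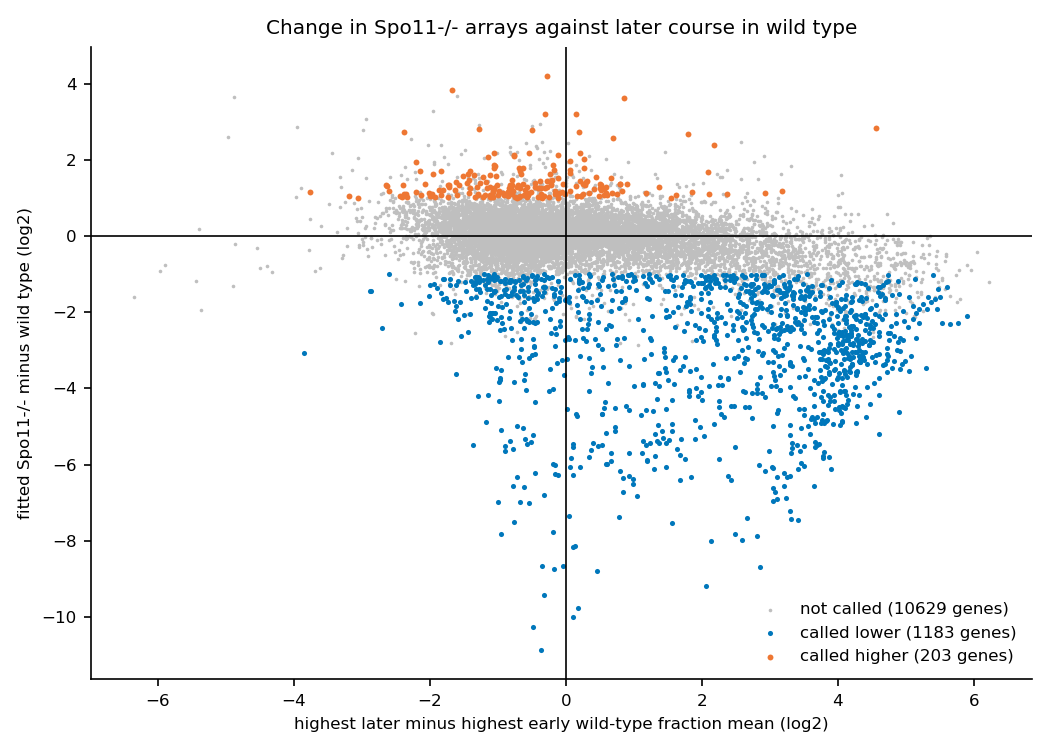
Each point is 1 of the 12015 genes tested; the horizontal axis is the highest later minus the highest early wild-type fraction mean and the vertical axis the fitted Spo11-/- minus wild-type change, both log2. Blue points fell and orange points rose; the falls extend to the right, with a median later difference of 2.59, while a column of falls below -5 also stands near 0 on the horizontal axis.

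Spermatid RNA was itself uneven in the wild type. The median level of the 29 spermatid genes was 11.39, 12.56, 9.48 and 8.47 in spermatogonia arrays 1 to 4, 6.99 to 8.43 in pre-leptotene and 7.93 to 8.70 in leptotene/zygotene. Spo11-/- arrays had 3.24, 2.95 and 2.98. In bulk RNA, fewer cells of a type and less RNA per cell cannot be told apart, and how far later cells contributed RNA to the wild-type early fractions was not tested.

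Promoter sequence was read for the genes that moved together, from 150 bases before the first listed RefSeq start (GRCm38.p6), for 9811 of the genes tested. A motif was counted on either strand, and a match is a description, not a site. The CRE-like motif TGANGTCA, bound by factors such as CREM, was present in 5.6% of promoters tested, in 11.6% of 953 genes that fell and in 2.58% of 155 that rose. Among 752 genes that fell and were higher later it was present in 12.6%. The MYB motif TAACNG was present in 8.99%, 11.9%, 11.0% and 13.7% of the same sets, and the X-box motif GTTGCC of RFX factors in 7.47%, 11.8%, 5.81% and 13.2%. The E-box CACGTG, searched as another motif, was present in 6.39%, 5.77%, 5.16% and 5.32%. Over all 27025 promoters of that length in the table the shares were 5.85% for the CRE-like motif, 11.9% for MYB, 6.66% for the X-box motif and 4.3% for the E-box. The table held no entry for Spo11 or Mybl1.

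The promoters of 3 genes that fell with the later programme are given below with that of Prmt1, which fell without being higher later. Tnp1 (chromosome 1, 73015900 to 73016049, minus strand), Ldhc (chromosome 7, 46861113 to 46861262, plus strand), Piwil1 (chromosome 5, 128736096 to 128736245, plus strand) and Prmt1 (chromosome 7, 44986421 to 44986570, minus strand) are printed 5′ to 3′ up to the base before the start. Capitals mark the CRE-like motif in Tnp1 and MYB motifs in Ldhc and Piwil1.
Tnp1: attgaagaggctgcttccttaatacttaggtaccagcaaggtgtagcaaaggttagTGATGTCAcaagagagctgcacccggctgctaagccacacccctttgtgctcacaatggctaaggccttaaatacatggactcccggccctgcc
Ldhc: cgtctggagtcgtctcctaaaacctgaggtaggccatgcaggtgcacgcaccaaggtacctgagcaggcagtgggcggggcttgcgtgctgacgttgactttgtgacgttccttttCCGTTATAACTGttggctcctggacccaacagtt
Piwil1: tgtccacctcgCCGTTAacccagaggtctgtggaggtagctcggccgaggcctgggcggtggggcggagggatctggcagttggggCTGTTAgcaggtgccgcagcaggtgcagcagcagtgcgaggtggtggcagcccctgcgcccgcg
Prmt1: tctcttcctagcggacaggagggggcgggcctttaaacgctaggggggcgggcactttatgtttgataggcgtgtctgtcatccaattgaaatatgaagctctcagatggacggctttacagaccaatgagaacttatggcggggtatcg
The Tnp1 promoter held 1 CRE-like match, Ldhc held 2 adjoining MYB matches on opposite strands, and Piwil1 held 2 MYB matches. No searched motif was found in the Prmt1 window.

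Genes of early meiosis were described by process. Over 8 lists covering meiotic entry, DNA replication, break formation, axis and synaptonemal complex, strand exchange, crossover maturation, sex chromosome silencing and the piRNA pathway, 116 of 122 genes did not pass, 5 fell and 1 rose, with a median change of 0.12. Of all genes tested 9.85% fell and 1.69% rose, with a median of -0.04. In 115 of them the change was below 1 in either direction. A gene that did not pass is not shown to be equal in both genotypes. The summary of all lists shows their medians beside these counts.

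**Figure D3:**
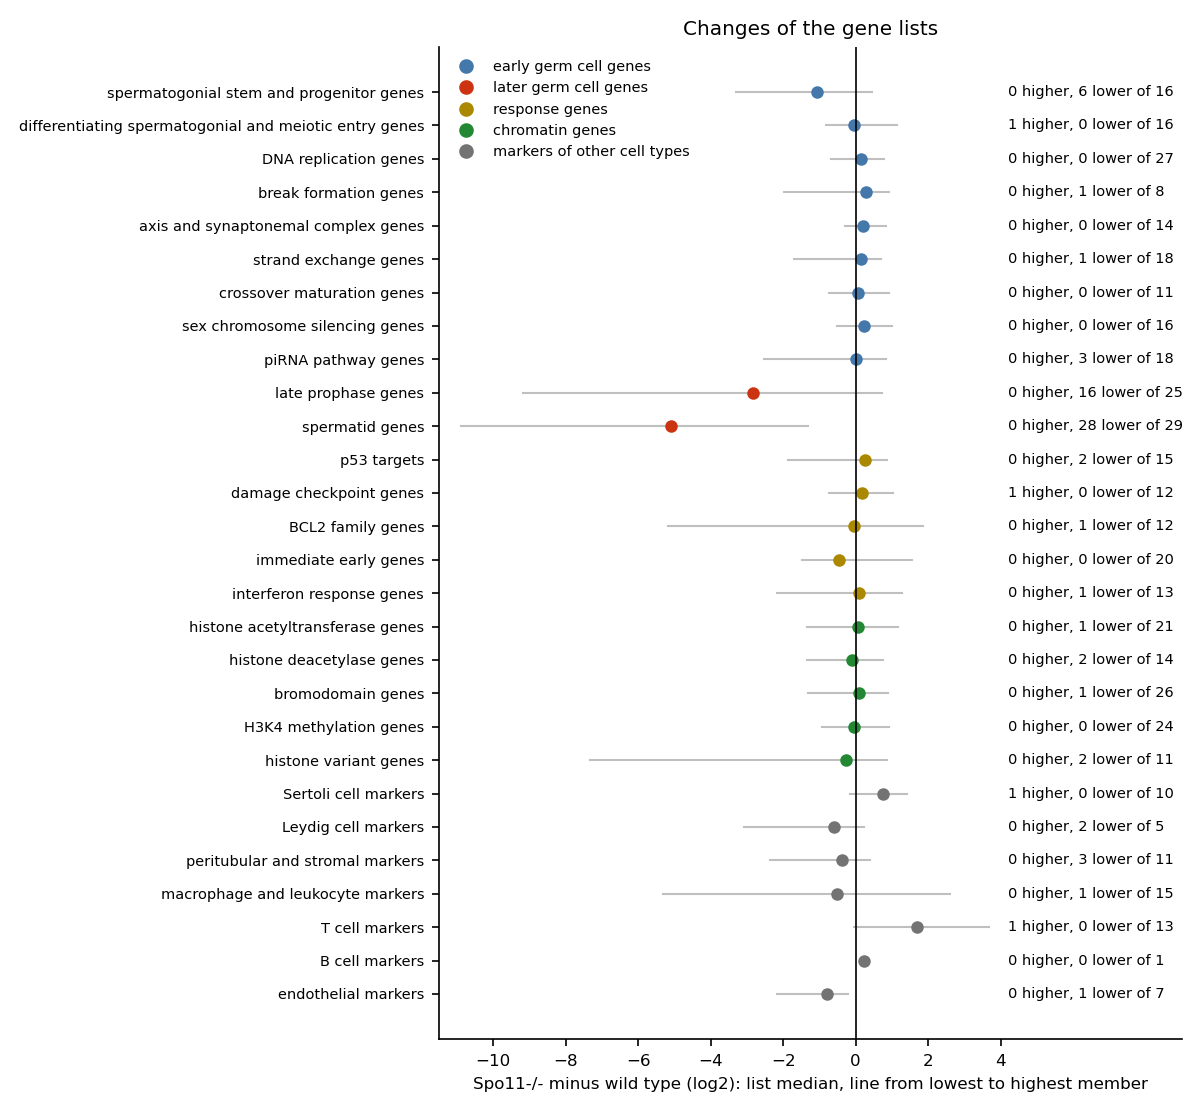
Fitted Spo11-/- minus wild-type change (log2) of the gene lists: points are list medians, lines run from the lowest to the highest member, and the counts at the right give members that rose and fell of those tested. Spermatid and late prophase genes have medians of -5.08 and -2.84, the T cell and stem cell lists stand at 1.68 and -1.06, and the medians of all others lie within 1 of 0.

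Of 16 differentiating spermatogonial and meiotic entry genes 1 rose, none fell and the median change was -0.03 (0.17 after median centring, where all genes shifted to 0.17). Ythdc2, an RNA helicase needed for the switch to meiosis, was at 11.17, 10.92 and 10.96 against 8.94, 10.00 and 11.10 in the wild type. The change was 1.13 ± 0.34 (adjusted p = 0.0439), and the call ended in most fits that left out 1 array, each Spo11-/- array among them. Stra8, the switch gene of meiotic entry, was at 11.47, 10.81 and 11.74 against 10.79, 11.68 and 12.54 (-0.40 ± 0.29, adjusted p = 0.382). None of 27 DNA replication genes changed (median 0.15, 4 with an unadjusted p below 0.05). The origin recognition gene Orc1 was at 0.78 ± 0.31 (adjusted p = 0.110) and the thymidylate synthase gene Tyms at 0.77 ± 0.32 (adjusted p = 0.132).

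Of 8 break formation genes only Spo11 changed, and the median change was 0.29. Prdm9 was at 7.13, 5.86 and 5.38 against 4.34, 5.33 and 6.10. Its Spo11-/- array was the highest of each fraction, with a change of 0.92 ± 0.35 that did not pass (adjusted p = 0.0992). Hormad1, which marks unsynapsed axes and promotes break formation, was at 10.79, 9.97 and 10.69 against 9.51, 10.15 and 11.67 (0.27 ± 0.32, adjusted p = 0.598). Mei1 was at 0.55, Mei4 at 0.39 and Rec114 at 0.21, all needed for breaks and none past the test. None of 14 axis and synaptonemal complex genes changed by the rule (median 0.20, 3 with an unadjusted p below 0.05). Sycp3 was at 13.37, 13.01 and 13.65 against 12.37, 12.77 and 13.56 (0.51 ± 0.18, adjusted p = 0.0724). Sycp1, the transverse filament, was at 12.89, 12.44 and 12.33 against 11.13, 12.19 and 12.46 (0.46 ± 0.26, adjusted p = 0.254). The meiotic cohesin gene Smc1b was at 0.85 ± 0.21 (adjusted p = 0.0167), short of the fold minimum, and its Spo11-/- array was highest in all 3 fractions.

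Of 18 strand exchange genes 1 fell and none rose (median 0.15). The gene that fell was Swi5, which encodes an accessory factor of strand exchange. It was at 10.39, 10.06 and 10.72 against 11.84, 12.14 and 12.28, with all Spo11-/- arrays below all wild-type arrays. The change was -1.69 ± 0.15 (adjusted p = 3.90e-05). Its partner Sfr1 was at 0.00. Dmc1, the meiotic recombinase, was at 10.32, 9.71 and 9.71 against 8.58, 9.24 and 10.24 (0.63 ± 0.28, adjusted p = 0.147). The resection nuclease gene Exo1 was at 0.69 (adjusted p = 0.0202), the kinase gene Atm at 0.62 (adjusted p = 0.0532) and Nbn at 0.61 (adjusted p = 0.0455), all below the fold minimum.

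None of 11 crossover maturation genes changed by the rule (median 0.07, 5 with an unadjusted p below 0.05). The X-linked Tex11, which links synapsis and crossovers, was at 12.81, 12.47 and 12.15 against 11.16, 11.41 and 12.43 (0.91 ± 0.24, adjusted p = 0.0260), and Mlh3 of the crossover nuclease at 7.17, 6.88 and 6.83 against 7.19, 7.71 and 8.15 (-0.73 ± 0.19, adjusted p = 0.0232). Mlh3 is higher later in the wild type, with a mean of up to 10.19, and Tex11 is lower. None of 16 genes of sex chromosome silencing changed (median 0.22, 4 with an unadjusted p below 0.05). Scml2, an X-linked Polycomb-related protein, was at 12.49, 11.94 and 12.38 against 11.06, 11.44 and 11.88 (0.79 ± 0.22, adjusted p = 0.0290).

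Of 12 damage checkpoint genes 1 rose and 0 fell (median 0.17), where 1.69% of all genes tested rose and 9.85% fell. Chek1, the checkpoint kinase downstream of Atr, was at 10.09, 10.17 and 10.15 against 8.50, 9.10 and 9.70. Every Spo11-/- array lay above every wild-type array (1.02 ± 0.21, adjusted p = 0.00748). The change was close to the fold minimum, and the call ended without the Spo11-/- leptotene/zygotene array (0.88, adjusted p = 0.0675) and with the probe sets of the gene averaged (0.33, adjusted p = 0.268). Of 15 p53 targets 2 fell and none rose, where 9.85% of all genes tested fell. The list median was 0.25, and -0.06 without the Spo11-/- pre-leptotene array. In that array 3 targets lay at least log2 1 above every wild-type array of the fraction and 2 as far below, where 7.66% and 9.32% of all genes did. The stress gene Sesn2 was at 5.49, 4.39 and 5.38 against 6.03, 6.89 and 7.91 (-1.87 ± 0.40, adjusted p = 0.00877), and the apoptotic nuclease gene Aen at 9.18, 8.48 and 8.92 against 9.73, 10.01 and 10.18 (-1.15 ± 0.18, adjusted p = 0.00129). Neither fall was called without the Spo11-/- pre-leptotene array. Of 12 BCL2 family genes 1 fell, which is near the share of 9.85% over all genes tested. That gene was Bcl2l14, a member with high levels in late germ cells. Bcl2l14 was at 3.04, 3.25 and 3.05 against 6.28, 7.94 and 11.89, at least 18.9-fold lower.

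Chromatin genes were followed because the series concerns acetylated histones at recombination sites. Over 5 lists 6 of 96 genes fell and 0 rose, with a median change of -0.03, where 9.85% of all genes tested fell and their median was -0.04. Of 21 histone acetyltransferase genes 1 fell (median 0.07). Kat5, the Tip60 enzyme, was at 7.45, 6.86 and 6.93 against 7.92, 8.49 and 8.87 (-1.33 ± 0.22, adjusted p = 0.00188). The other enzymes looked at did not pass. Ep300 was at 10.65, 10.80 and 10.62 against 9.90, 10.59 and 10.79 (0.22 ± 0.19), Crebbp at 12.41, 12.40 and 12.58 against 11.68, 12.44 and 12.63 (0.14 ± 0.22) and Hat1 at 13.30, 12.68 and 13.17 against 12.30, 12.58 and 13.26 (0.35 ± 0.23). Kat2b was at 6.18, 8.47 and 7.61 against 6.32, 7.08 and 8.24 (0.23 ± 0.44). Their adjusted p were 0.474, 0.697, 0.343 and 0.758.

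Of 14 histone deacetylase genes 2 fell (median -0.09, but 0.12 after centring and 0.15 after quantile normalization): Hdac11, at 5.53, 5.35 and 5.43 against 6.32, 6.78 and 7.31 (-1.35 ± 0.18, adjusted p = 0.000631), and Hdac5, at 7.001, 6.58 and 6.44 against 6.58, 8.03 and 8.72 (-1.22 ± 0.33, adjusted p = 0.0270). Both calls ended after quantile normalization, and that of Hdac5 also after median centring, with the block and without each single Spo11-/- array. Of 26 bromodomain genes, which read acetylated lysine, Brd1 alone fell (-1.30 ± 0.34, adjusted p = 0.0229, median of the list 0.08). That call, too, was lost after quantile normalization and with the block. Brdt, the testis bromodomain protein, was at 8.52, 8.24 and 7.89 against 7.92, 8.39 and 9.30 (-0.19 ± 0.26, adjusted p = 0.649). None of 24 genes of H3K4 methylation changed by the rule (median -0.04, 0.16 after centring, 6 with an unadjusted p below 0.05). Wdr5, a core subunit of the H3K4 methyltransferases, was at 9.88, 9.51 and 9.79 against 10.36, 10.65 and 10.92 (-0.94 ± 0.18, adjusted p = 0.00413). Of 11 histone variants 2 fell, both of spermatids. H1f7, a linker histone of condensing spermatids, was at 4.06, 3.60 and 2.24 against 9.39, 10.27 and 13.67 (-7.34 ± 0.60, adjusted p = 2.56e-05). H2al2a, which loosens nucleosomes before protamines arrive, was at least 32.0-fold lower.

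Genes not higher later were described apart. By the first definition, no later wild-type fraction mean above the highest early one, 6078 genes qualified, of which 401 changed (6.6%): 149 rose (2.45%) and 252 fell (4.15%). The definition reads the wild-type early arrays that are also in the comparison, so it favours genes high in them. The 12 largest falls were all genes of late germ cells, Prm1, Prm2, Smcp, Gsg1, Odf1, Gapdhs, Akap4, Oaz3, Tssk6, Hspa1l, Spata3 and Cabs1. Prm1, for example, averaged 14.78 in wild-type spermatogonia and 14.41 in round spermatids. A stricter definition, no later mean above the lowest early one, left 4335 genes, of which 240 changed (5.54%), with 107 rises (2.47%) and 133 falls (3.07%). Scaling turned the majority in the first set: 367 rose and 154 fell after quantile normalization, and 333 and 178 after median centring. Genes named from the stricter set were chosen by a rule added after their values were seen.

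In the stricter set the largest fall was Zbtb12, a zinc finger gene, at 3.52, 3.11 and 2.94 against 4.92, 6.51 and 7.28 in the wild type (at least 4.80-fold lower, adjusted p = 0.000388). The other falls are given with what the genes are known to do. Ptk7, a receptor of planar cell polarity, was at 6.12, 4.50 and 6.08 against 7.41, 8.42 and 9.11 (-2.77 ± 0.39, adjusted p = 0.000707). The netrin receptor gene Unc5b was at 4.27, 4.11 and 4.95 against 5.69, 7.08 and 7.63 (-2.41 ± 0.36, adjusted p = 0.00110). The small GTPase gene Rac3 fell by 2.23 (SE 0.39) and Agap3, which acts on Arf GTPases, by 2.19 (SE 0.26). For all 4 genes every Spo11-/- array lay below every wild-type array. Separation within each fraction was part of the rule that chose them, and 15.3% of all genes tested lay below in this way.

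Prmt1, the main asymmetric arginine methyltransferase, was chosen by the same rule. It was at 9.89, 9.27 and 10.24 against 11.73, 11.97 and 12.38, a range of wild-type levels under 1 (-2.19 ± 0.21, adjusted p = 5.54e-05). Aunip, which works with Aurora A kinase and in DNA end resection, was as tightly grouped. It was at 6.07, 5.80 and 5.97 against 7.84, 8.40 and 8.72 (-2.43 ± 0.17, adjusted p = 9.83e-06). Metabolic and growth genes in the same set were Fbxo32, a ubiquitin ligase of muscle wasting (-2.88 ± 0.59), the aldehyde dehydrogenase gene Aldh2 (-2.28 ± 0.47) and the cell cycle inhibitor gene Cdkn1c (-2.63 ± 0.54). All 3 calls ended without the Spo11-/- spermatogonia array.

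Genes of spermatogonial stem and progenitor cells fell in part. Of 16 tested 6 fell and 0 rose, with a median change of -1.06. Of all genes tested 9.85% fell and 1.69% rose, with a median of -0.04. Lin28a, an RNA-binding protein of undifferentiated spermatogonia, was at 5.66, 5.08 and 8.66 against 7.92, 10.11 and 11.01 (-3.31 ± 0.66, adjusted p = 0.00624). Gfra1, the receptor for the niche factor GDNF, was at 3.62, 3.58 and 5.01 against 5.13, 6.81 and 7.54 (-2.48 ± 0.39, adjusted p = 0.00166), and was not called with its probe sets averaged (-0.86). Its partner Ret fell by 1.72 (adjusted p = 0.0471). Id4, an inhibitor of differentiation in stem cells, was at 5.06, 5.03 and 6.92 against 6.40, 7.58 and 10.23 (-2.39 ± 0.45, adjusted p = 0.00413). Upp1, a pyrimidine phosphorylase, fell by 2.25 (adjusted p = 0.0256) and the transcription factor gene Etv5 by 1.15 (adjusted p = 0.0470). Foxc2, a factor of quiescent stem cells, was not in the list and fell by 2.53 (SE 0.50, adjusted p = 0.00581); its call ended without the Spo11-/- spermatogonia array.

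Other stem cell genes did not pass. Zbtb16 was at 8.24, 8.15 and 9.33 against 8.28, 9.96 and 10.64 (-1.18 ± 0.49, adjusted p = 0.124), Sall4 at -0.56, Foxo1 at -0.28 and Taf4b at 0.45. The list counted 3 falls after quantile normalization, with the block, with all probe sets averaged or without the Spo11-/- spermatogonia or leptotene/zygotene array, and 2 without the 4 pre-leptotene arrays. The call of Upp1 ended without each single Spo11-/- array. Id4 and Upp1 were higher in a later wild-type fraction, Id4 with a mean of up to 12.16 against 9.41 in leptotene/zygotene.

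The largest rise in the stricter set was Mid1, an X-linked ubiquitin ligase of microtubules, at 8.84, 8.84 and 8.41 against 4.85, 5.84 and 7.18 (2.72 ± 0.36, adjusted p = 0.000489). It was not called with the probe sets of the gene averaged. Neto2, an auxiliary subunit of kainate receptors, was at 9.03, 9.04 and 8.98 against 6.92, 7.26 and 7.73 (1.72 ± 0.19, adjusted p = 0.000156). Hgsnat, a lysosomal acetyltransferase, was at 8.42, 9.71 and 8.48 against 6.65, 7.07 and 7.78 (1.78 ± 0.30, adjusted p = 0.00255). For these 3 genes the genotypes did not overlap. Separation within each fraction was part of the rule that chose them, so it is no further result. Spata5l1, an AAA ATPase, was at 6.81, 6.58 and 7.06 against 4.26, 4.84 and 5.96 (1.86 ± 0.35, adjusted p = 0.00437). Stx11 of vesicle fusion (1.72 ± 0.37), the microtubule gene Map1b (1.71 ± 0.41), the transcription factor gene Tshz3 (1.64 ± 0.41), the cap methyltransferase gene Cmtr2 (1.60 ± 0.41) and the zinc finger gene Zfp963 (1.57 ± 0.40) rose too. The calls of Map1b, Tshz3 and Zfp963 ended with the block, and that of Cmtr2 without each single Spo11-/- array. The call of Stx11 ended without the Spo11-/- leptotene/zygotene array. Those of Stx11 and Map1b also ended with the probe sets of each gene averaged.

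The other 3 of the 12 largest rises lie on the X chromosome, as Mid1 does. Zfp280c, a zinc finger gene, was at 5.50, 6.34 and 6.16 against 2.90, 4.09 and 5.09 (1.83 ± 0.34, adjusted p = 0.00382). The membrane proteolipid gene Plp2 was at 9.38, 11.05 and 8.32 against 7.20, 7.90 and 8.90 (1.70 ± 0.35, adjusted p = 0.00748). Rbmx, an RNA-binding protein of splicing, was at 8.37, 7.62 and 7.21 against 5.66, 6.02 and 7.13 (1.61 ± 0.32, adjusted p = 0.00622). The Rbmx call ended with its probe sets averaged and without the Spo11-/- spermatogonia array. Ccnb3, a meiotic cyclin gene also on the X, was at 7.52, 6.37 and 6.67 against 3.10, 4.85 and 5.97 (2.11 ± 0.60, limma adjusted p = 0.0326). Its call ended in 10 alternatives, among them the block, no filter and the fits without the Spo11-/- spermatogonia or leptotene/zygotene array.

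X-linked genes as a class were counted because this chromosome is silenced in pachytene. Of 395 tested 24 rose (6.08%) and 22 fell (5.57%), against 178 (1.54%) and 1159 (10.0%) of 11575 autosomal genes. Single autosomes had between 0.257% and 3.45% of genes rising. The median change was 0.29 for X-linked and -0.05 for autosomal genes, a difference of 0.34, which was 0.18 in spermatogonia, 0.39 in pre-leptotene and 0.38 in leptotene/zygotene. The median X-linked minus autosomal level was -0.20, 0.02 and -0.04 in the 3 Spo11-/- arrays. Wild-type arrays ran from -1.06 to -0.18. In pre-leptotene and leptotene/zygotene the Spo11-/- array lay above all wild-type arrays, and in spermatogonia it lay within their range.

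The autosomal genes include later genes that fell in Spo11-/- arrays, and their part in the difference was not tested. In the stricter set of 4335 genes, 15 of 278 X-linked genes rose (5.4%) and 4 fell (1.44%), against 91 (2.25%) and 129 (3.19%) of 4041 autosomal genes. There the median changes were 0.32 and 0.09. The level of the class was -0.30, -0.19 and -0.50 in Spo11-/- arrays against -0.71 to -0.37 in the wild type. The leptotene/zygotene value fell inside the overall wild-type range. Within its own fraction each Spo11-/- array lay above all wild-type arrays, in leptotene/zygotene narrowly (-0.504 against a highest of -0.519). With no filter on low values the difference of 0.34 in medians was 0.087. No test was made for the class, and strain, RNA of other cells and genotype cannot be told apart here.

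**Figure D4:**
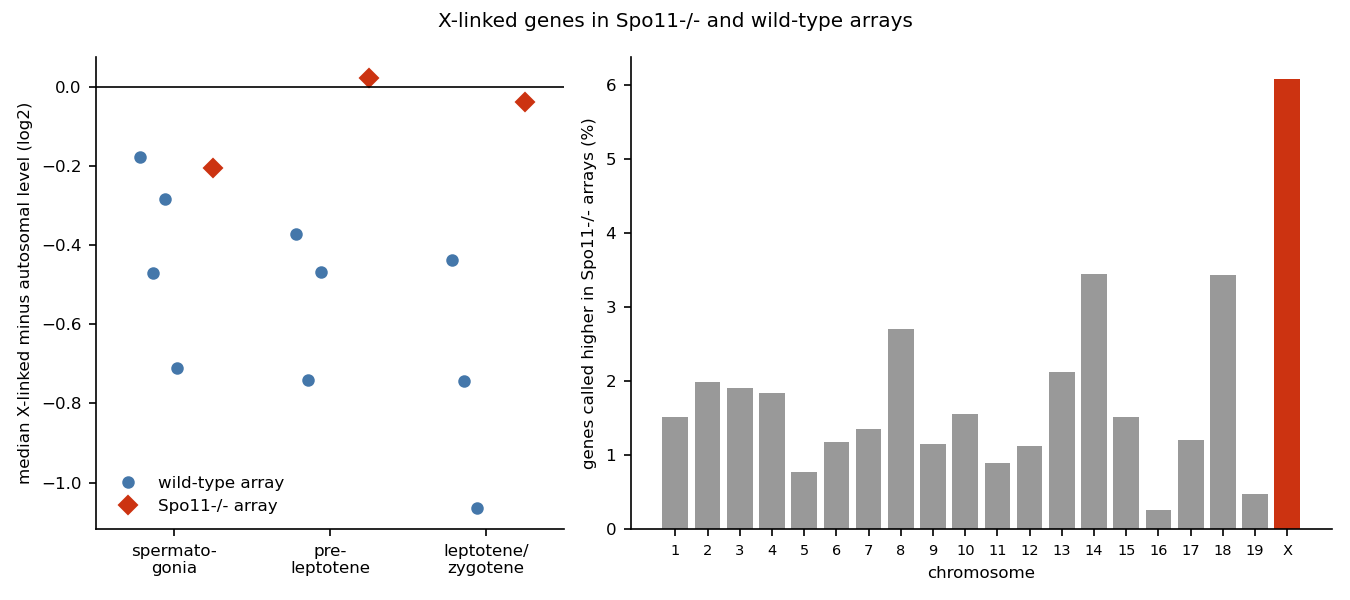
Left, median log2 level of X-linked minus that of autosomal genes in each of the 13 arrays, by fraction, with wild-type arrays as blue circles and Spo11-/- arrays as red diamonds. Right, percent of tested genes that rose in Spo11-/- arrays on each chromosome; the X bar stands at 6.08% and the autosomes between 0.257% and 3.45%.

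The 3 fractions did not carry the same difference. A limma F test for the interaction of fraction and genotype, with the spread taken from wild-type replicates, passed for 256 genes (2.13%), and 1337 had an unadjusted p below 0.05. In 237 of the 256 the Spo11-/- minus wild-type difference was highest in pre-leptotene, and in 15 it was lowest there. Pre-leptotene differed from spermatogonia in 340 genes and leptotene/zygotene from pre-leptotene in 216. Between leptotene/zygotene and spermatogonia limma found 0, with 397 at an unadjusted p below 0.05. Of the 256 genes 23 also passed the comparison over all fractions.

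The 5 genes with the smallest interaction p are genes of activated or innate-like T cells. Cxcr6, a chemokine receptor, was at 3.24, 12.66 and 3.19 in Spo11-/- spermatogonia, pre-leptotene and leptotene/zygotene, against a highest wild-type array of 4.51 (interaction adjusted p = 5.04e-05). The T cell receptor gamma segment Trgv4 was at 6.29, 12.34 and 2.86, with no wild-type array above 3.60 (adjusted p = 1.23e-05). Tnfsf11, the RANK ligand, was at 5.16, 11.25 and 2.80 (highest wild-type array 3.12), the activation marker Cd69 at 4.64, 10.76 and 2.95 (2.97), and the cytokine gene Il17a at 4.22, 9.29 and 3.50 (3.00). Their interaction adjusted p were 9.21e-06, 9.21e-06 and 5.62e-05. For Trgv4, Tnfsf11, Cd69 and Il17a every wild-type array lay below background, so they passed the filter only through Spo11-/- arrays. The spread in their test is that of wild-type values at the floor, which makes a small p likely for any array above it. Their p-values therefore add little to the levels themselves. These genes were high in 1 array, low in the leptotene/zygotene array of the same genotype, and for 4 of them also above background in the spermatogonia array. In the comparison over all fractions Trgv4, Tnfsf11, Cd69 and Il17a rose by 4.21, 3.61, 3.20 and 2.74 (at least 8.95-, 5.29-, 4.35- and 3.18-fold against background), and none of the 4 calls held with the block.

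T cell markers followed the same array. Of 13 tested, 12 lay at least log2 1 above every wild-type array of the fraction in Spo11-/- pre-leptotene, where 7.66% of all genes did, against 2 in spermatogonia and 0 in leptotene/zygotene. Their median level was 8.87 in that array, 3.24 and 2.68 in the other 2 Spo11-/- arrays and 2.59 to 4.88 in the wild type. The defining T cell receptor gene Cd3g was at 3.02, 11.42 and 2.58, against a highest wild-type array of 5.44. Only the granzyme gene Gzma rose over all fractions (1.25 ± 0.38, limma adjusted p = 0.0422), where 1.69% of all genes tested rose. Its call was lost in most fits that left out 1 array. The list's median change was 1.68 with the pre-leptotene array and -0.27 without it.

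Other lists differed between the Spo11-/- arrays too. Macrophage and leukocyte markers had a median of 6.62 in Spo11-/- pre-leptotene and 2.99 and 2.79 in the other 2, against 2.63 to 7.68 in the wild type. Wild-type pre-leptotene array 1 was as high, at 6.72, while arrays 2 and 3 had 2.83 and 3.15. Peritubular and stromal markers had 7.69 in Spo11-/- pre-leptotene against 3.48 and 4.09, with 3.89 to 9.17 in the wild type. Immediate early genes, which respond to cell stress and dissociation, had 10.29 against 6.94 and 6.86, with 7.04 to 10.50 in the wild type, and 10 of 20 lay at least log2 1 above every wild-type pre-leptotene array. The Spo11-/- spermatogonia array lay on the other side. There 9 of 15 macrophage and leukocyte markers, 8 of 11 peritubular and stromal markers and 9 of 20 immediate early genes lay at least log2 1 below every wild-type spermatogonia array, where 9.09% of all genes did, and the Spo11-/- minus wild-type differences of the lists were -3.34, -3.37 and -1.93. The one B cell marker that could be tested, Ighm, was at 5.93, 5.56 and 5.07. The part of these cells in any change was not tested; the counts without the pre-leptotene array are given above, and the large falls of spermatid genes are as large without it (list median -5.45).

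**Figure D5:**
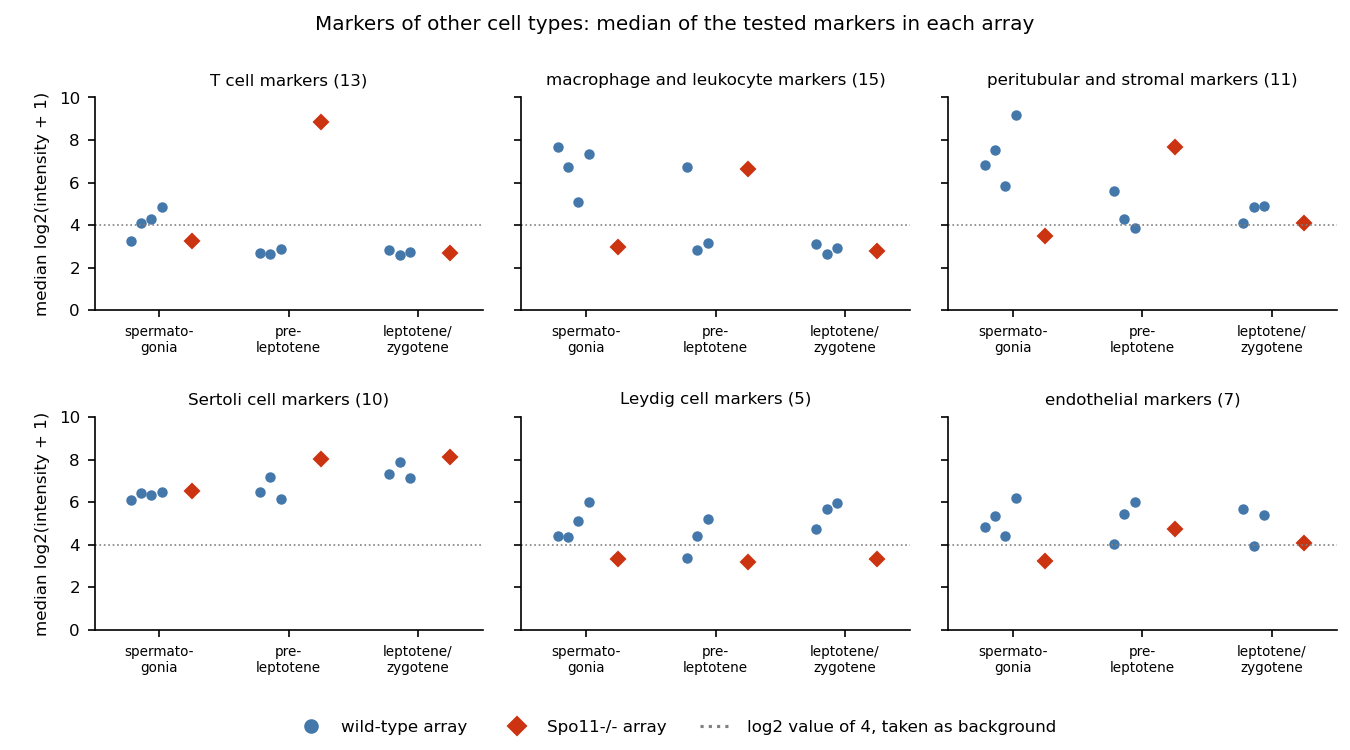
Median log2(intensity + 1) of the tested markers of 6 other cell types in each array, by fraction; the number of markers is in each title, blue circles are wild-type arrays, red diamonds Spo11-/- arrays, and the dotted line is the log2 value of 4 taken as background. The Spo11-/- pre-leptotene array stands at 8.87 for T cell markers, above every other array.

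Cells of the tubule wall and interstitium were measured as well. Of 10 Sertoli cell markers 1 rose, where 1.69% of all genes tested did. It was Aard, at 9.57, 10.96 and 11.04 against 8.40, 9.26 and 9.84 (1.42 ± 0.31, limma adjusted p = 0.00929). In the list 9 of the 10 changes were positive (median 0.74), against 46.3% of autosomal and 71.9% of X-linked genes tested. Quantile normalization called 5 and centring 4 of the Sertoli cell markers. With the block or without the Spo11-/- pre-leptotene or leptotene/zygotene array none passed. Sertoli cells nurse the germ cells, and the median level of their markers was 6.54, 8.03 and 8.14 in Spo11-/- arrays against 6.11 to 7.87 in the wild type. Of 5 Leydig cell markers 2 fell, where 9.85% of all genes tested fell. Cyp17a1 of steroid synthesis was at 2.31, 2.18 and 3.34 against 2.34, 5.48 and 7.42 (at least 3.23-fold lower, adjusted p = 0.00381), and Fabp3, a fatty acid carrier, fell by 1.43 (adjusted p = 0.0472), a call lost in most fits that left out 1 array.

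Of 11 peritubular and stromal markers 3 fell, where 9.85% of all genes tested fell. They were the smooth muscle genes Acta2 (-2.36 ± 0.67), Tagln (-2.17 ± 0.67) and Myh11 (-1.73 ± 0.47), with limma adjusted p of 0.0335, 0.0455 and 0.0276. Acta2 was at 6.60, 9.30 and 6.58 against 8.40, 9.99 and 11.34. All 3 calls ended with the block and without the Spo11-/- spermatogonia or leptotene/zygotene array. Those of Tagln and Myh11 also ended after quantile normalization, and that of Tagln after median centring. Of 15 macrophage and leukocyte markers Aif1 alone fell, at 3.54, 4.56 and 3.83 against 7.74, 8.99 and 12.38 (-5.30 ± 0.70, adjusted p = 0.000522). Aif1 is higher in late wild-type germ cells (mean 12.27 in round spermatids). The other 14 markers were not called, and the median change was -0.51. Of 7 endothelial markers 1 fell, Egfl7 (-1.25 ± 0.19, limma adjusted p = 0.00129), where 9.85% of all genes tested fell. The median change of the list was -0.78. The Egfl7 call ended after quantile normalization, with its probe sets averaged and without the Spo11-/- pre-leptotene array. Of 13 interferon response genes 1 fell, the membrane tether gene Bst2, at 4.57, 4.15 and 3.99 against 4.74, 6.74 and 7.79 (-2.18 ± 0.56, adjusted p = 0.0226). Its call ended with the block, after quantile normalization and without each single Spo11-/- array. The interferon list had a median change of 0.08, and -0.85 without the Spo11-/- pre-leptotene array. In that array 6 members lay at least log2 1 above every wild-type array of the fraction and 1 as far below, where 7.66% and 9.32% of all genes did.

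Single fractions, each with 1 Spo11-/- array, were described by counts and no test was made. The Spo11-/- array exceeded all wild-type arrays of its fraction by log2 1 or more in 90 genes in spermatogonia (0.749%), 920 in pre-leptotene (7.66%) and 182 in leptotene/zygotene (1.51%), and lay as far below them in 1092 (9.09%), 1120 (9.32%) and 1350 (11.2%). Single wild-type arrays held against the others of their fraction gave 29 to 799 genes above and 70 to 383 below, each set against 1 array fewer. Only the counts below, and that above in pre-leptotene, lay outside what single wild-type arrays gave. At that distance of log2 1 or more, 6 genes lay above the wild type in all 3 fractions and 519 below it. After quantile normalization the counts above were 365, 954 and 593.

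Among the 10 largest rises separated in every fraction, beside Tnfsf11, Cd69, Il17a, Mid1 and Ccnb3 described above, were Iqgap2, a scaffold of the cytoskeleton, at 6.85, 8.61 and 5.11 against 3.68, 4.25 and 5.16 (2.58 ± 0.49, adjusted p = 0.00465), and Gstm6, a glutathione transferase, at 5.62, 6.33 and 6.71 against 2.89, 4.01 and 5.21 (2.17 ± 0.32, adjusted p = 0.00101). Psg28 (2.18 ± 0.59), the ectonucleotidase gene Nt5e (2.14 ± 0.49) and the lysosomal transporter gene Pqlc3 (1.98 ± 0.47) rose as well, but none of these 3 calls held with the block. Nt5e and Pqlc3 were highest in the pre-leptotene array, at 8.07 and 8.90. Ctnnal1, an alpha-catenin relative, was at 4.03, 5.84 and 5.50 against 3.04, 3.18 and 4.14 (1.74 ± 0.29, limma adjusted p = 0.00227). Its wild-type median lay below background, so the size of the change is uncertain. The call ended with log2(value + 16) and with its probe sets averaged. Spata4, a late germ cell gene, was among the largest falls, at 2.77, 3.02 and 3.00 against 8.67, 11.76 and 13.66 (at least 195-fold lower).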

How the data were processed

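The deposited values are intensity per probe set, summarised by the authors with GCRMA per the submitters' processing notes; version and settings are not given in the sources used here. They ran on a linear scale and were analysed as log2(value + 1). Of 45037 probe sets 34945 had 1 gene symbol, 932 had several and 9160 were not listed; 34741 were joined to RefSeq (GRCm38.p6). A gene with several probe sets (9010 of 18193) was represented by the one with the highest mean over the 13 arrays. Genes at log2 of at least 4 in at least 2 arrays were kept (12015). limma 3.58.1 in R 4.3.3 fitted fraction and genotype as additive terms, with Benjamini-Hochberg adjustment over all genes; the scripts were tested on simulated data. The interaction was tested on the 6 group means.

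Of 29 lists with 554 entries, 487 entries were on the array; no list test was made. Named genes were the 10 largest rises and falls separated in all fractions, 12 each among genes not higher later (and again by the stricter definition), up to 4 called members of a list (2 where none was called), the 5 of smallest interaction p, and 16 genes always looked at; predicted names were left out. Etv5 and Ret, and list members given as values, were chosen after their values were seen. Members, lists and rules were chosen with earlier results of these data known. The number of arrays limits the precision. Same-numbered wild-type arrays deviated together unevenly (correlations from -0.27 to 0.66), so the numbers were not taken as pairs. Alternatives covered filter, probe set, pseudocount, scaling, array weights, block and left-out arrays.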

Additional observations from a re-analysis of the deposited data

Results flagged for a closer look

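In 4 of 137 groups examined, 1 wild-type spermatogonia array stood apart from the other 3, and chance flags about 1 in 20 groups. Array 4 was highest for Tnfsf11 (3.12, others 2.78 to 2.80, all below background), array 2 for Aunip (8.72, others 8.34 to 8.38) and for Prmt1 (11.98, others 11.73 to 11.76), and array 3 for Chek1 (9.70, others 9.05 to 9.13). For Aunip and Prmt1 the Spo11-/- arrays lay below all of these values, and for Chek1 above them.

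For 8 named genes the Spo11-/- minus wild-type difference differed between fractions in limma's interaction test. The adjusted p was 9.21e-06 for Tnfsf11, 9.21e-06 for Cd69, 1.23e-05 for Trgv4, 5.04e-05 for Cxcr6 and 5.62e-05 for Il17a. For Tnfsf11, Cd69, Trgv4 and Il17a the spread in the test came from wild-type values below background. The adjusted p of the others follow. The value was 0.00411 for Zdhhc2, a palmitoyl transferase gene at 4.52, 7.98 and 5.01, 0.0156 for Nt5e and 0.0346 for Pqlc3. In all 8 the pre-leptotene array was the highest of the 3 Spo11-/- arrays.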

How the results depend on the processing

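Of 3017 values of named genes under the alternatives, 2715 kept their direction and side of the threshold, 279 lost a call, 23 gained one and 0 reversed a call; 15 uncalled values changed sign. Over all genes the rises, 203 as reported, numbered 125 with log2(value + 16), 574 after quantile normalization, 468 after median centring, 118 without the 4 pre-leptotene arrays, 347 on 6 group means, 498 with no fold minimum and 21 with a change of at least 2. They ran from 115 to 244 with 1 array left out. The falls, 1183, numbered 729 with a change of at least 2 and ran from 721 to 1233 with 1 array left out. Among genes not higher later, the 149 rises became 98, 367, 333, 98, 247, 360 and 12 under those 7 settings in the same order, and 71 to 186 with 1 array left out. The 252 falls there became 154 after quantile normalization, 142 without the 4 pre-leptotene arrays, 110 with a change of at least 2, 133 by the stricter definition and 58 where no later mean lay above the highest Spo11-/- array, and 168 to 282 with 1 array left out. The interaction of fraction and genotype passed in 86 genes with a filter of log2 of at least 5 in at least 3 arrays, and in 162 to 336 with 1 array left out. The difference in median change between X-linked and autosomal genes was 0.087 with no filter and 0.30 to 0.44 with 1 array left out. In single fractions, a distance of log2 2 gave 4 genes above and 568 below in spermatogonia, 427 and 375 in pre-leptotene, and 14 and 696 in leptotene/zygotene; quantile normalization gave 365 above in spermatogonia and 593 in leptotene/zygotene. The change of Spo11 lost its call with no filter (-1.97, adjusted p = 0.0777, limma), after quantile normalization (-1.40), without the 5 spermatogonia arrays (-2.15), without the 4 pre-leptotene arrays (-2.37), and by size with a change of at least 2 (-1.97). It ran from -2.37 to -1.40 with 1 array left out. The cause of these shifts was not tested, other than that stricter thresholds call fewer genes by construction.

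No paired analysis was possible because the Spo11-/- arrays carry no replicate number shared with wild-type arrays. A replicate block that groups the 3 Spo11-/- arrays and same-numbered wild-type arrays as a random effect (correlation 0.225) gave 80 rises and 682 falls over all genes, 61 and 151 among genes not higher later, and -2.01 for Spo11 (adjusted p = 0.0943). With it 24 of 84 named calls were lost.

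Each Spo11-/- fraction is 1 array, so the spread within a fraction comes from wild-type arrays alone. Signals below a log2 of 4 have only a bound. The fits without wild-type spermatogonia arrays 1 and 2 together and without the 4 pre-leptotene arrays, and the naming of genes by the stricter definition, were chosen after seeing the data.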
